A study of Mus musculus with 28 samples.

Results

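Cytosolic sulfotransferases, the liver enzymes that attach sulfonate to steroids, bile acids, phenols and amines, were read here in 10 listed mouse genes: Sult2a1, Sult2a2, Sult2a4, Sult2a6, Sult3a1, Sult1e1, Sult1a1, Sult1d1, Sult1c2 and Sult5a1. They were chosen by name: every array probe whose RefSeq accession belongs to one of them was taken, which gave 14 of the 55681 probes and 10 of the 37208 genes and transcripts on the array. Liver RNA of 28 male mice had been hybridised to 1-colour Agilent arrays, 1 array per animal. CD-1 mice were given phenobarbital (PB) at 1500 ppm or at 0 ppm over 7 days (n = 4 each). The hCAR/hPXR mice, in which the nuclear receptors CAR and PXR are the human ones, had 1000 ppm or 0 ppm over 7 days (n = 7 each). C3H/HeNCrlCrlj mice, called C3H here, had 500 ppm or 0 ppm over 27 weeks, and both of their groups had first been injected once intraperitoneally with 90 mg/kg of the liver carcinogen diethylnitrosamine (n = 3 each). Ages are not given in the labels used here, and the labels do not say whether the C3H samples came from tumour or from surrounding liver. Dose therefore goes with strain in all 3 experiments, and duration and carcinogen go with strain between C3H and the other mice, so that they cannot be told apart.

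Cytosolic sulfotransferases transfer a sulfonate group from the donor PAPS (3'-phosphoadenosine 5'-phosphosulfate) to their substrates, which makes most of them more water-soluble and easier to excrete. The SULT2A enzymes act on hydroxysteroids such as dehydroepiandrosterone and on bile acids, the SULT1 enzymes on phenols, catechols and estrogens, and mouse Sult3a1 on amines. In mice, Sult2a and Sult3a1 transcripts are known to be far more abundant in female than in adult male liver, and CAR and PXR are known to act on several Sult genes. Phenobarbital is a barbiturate that activates CAR.

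The genes lie in 6 places in the mouse genome (build GRCm38.p6). Sult2a2 (chr7:13733506-13779637), Sult2a1 (chr7:13796246-13837410), Sult2a4 (chr7:13909677-13989591) and Sult2a6 (chr7:14222403-14254870) belong to 1 cluster that also holds Sult2a3, Sult2a5, Sult2a7 and Sult2a8. Sult1d1 (chr5:87554650-87569006) and Sult1e1 (chr5:87575968-87591611) are next to each other, while Sult1a1 (chr7:126672865-126690443), Sult5a1 (chr8:123142843-123158914), Sult3a1 (chr10:33851020-33879475) and Sult1c2 (chr17:53829637-53845958) stand apart from these. Probe sequences were not used here, so probes of the near-identical Sult2a genes may pick up each other's transcripts.

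Windows upstream of 4 annotated transcript starts are shown because the Sult2a genes moved together: those of 2 Sult2a genes that rose, of their neighbour Sult2a3 in the cluster, and of the estrogen sulfotransferase gene Sult1e1. Each holds the 250 bases before the start, from RefSeq on GRCm38.p6, all on the minus strand and written 5′ to 3′, where the window of Sult2a4 reaches 3 bases into the gene as annotated (Sult2a4 chr7:13989589-13989838, Sult2a6 chr7:14254871-14255120, Sult2a3 chr7:14123049-14123298, Sult1e1 chr5:87591612-87591861). Capitals mark matches, on either strand, to the hexamers AGGTCA and AGTTCA, which nuclear receptors are known to bind (reverse complements TGACCT and TGAACT), and to TCATGAACT, which contains TGAACT and was chosen after these windows had been read.
Sult2a4: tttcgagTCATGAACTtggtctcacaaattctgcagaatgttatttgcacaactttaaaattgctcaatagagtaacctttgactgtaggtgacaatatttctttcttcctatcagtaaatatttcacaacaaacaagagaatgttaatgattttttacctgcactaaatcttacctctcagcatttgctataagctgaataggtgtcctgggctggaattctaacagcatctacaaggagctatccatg
Sult2a6: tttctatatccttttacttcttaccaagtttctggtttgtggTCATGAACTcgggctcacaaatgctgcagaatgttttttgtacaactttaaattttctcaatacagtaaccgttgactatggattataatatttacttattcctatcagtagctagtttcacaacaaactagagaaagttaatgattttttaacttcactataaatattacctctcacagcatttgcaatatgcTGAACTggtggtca
Sult2a3: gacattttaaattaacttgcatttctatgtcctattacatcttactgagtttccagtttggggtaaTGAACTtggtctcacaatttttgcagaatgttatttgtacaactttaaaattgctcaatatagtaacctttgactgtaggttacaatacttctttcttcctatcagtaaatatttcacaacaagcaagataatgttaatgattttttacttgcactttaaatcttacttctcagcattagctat
Sult1e1: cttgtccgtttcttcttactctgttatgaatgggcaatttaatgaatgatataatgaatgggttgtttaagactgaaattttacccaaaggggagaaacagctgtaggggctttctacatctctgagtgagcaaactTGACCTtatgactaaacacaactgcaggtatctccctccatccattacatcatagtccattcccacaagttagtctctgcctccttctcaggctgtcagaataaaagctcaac

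TCATGAACT stood 243 to 235 bases before the start of Sult2a4 and 208 to 200 bases before that of Sult2a6, and among the other Sult windows it was present upstream of Sult2a5 alone. It occurred in 63 of 32851 windows of this length (0.192%). AGTTCA occurred in 11.8% of all windows and also upstream of Sult1d1, and AGGTCA occurred in 14% and, among the 8 listed genes with a window, upstream of Sult1e1 alone. No match to these 3 motifs was found in the windows of Sult3a1, Sult1a1, Sult1c2 and Sult5a1. Sult2a1 and Sult2a2, which also rose, had no window here and were not searched. The matches above describe letters in 1 window per gene.

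Levels below are log2 signals relative to the 75th percentile of their own array, a difference is PB minus control on that scale with the standard error of the limma fit, and a probe is called detected on an array where the scanner software marked it well above background. A gene entered the test of a strain if it was detected on every array of either group, and it is called where limma's adjusted p over all such genes was under 0.05. Where several probes measure a gene, the brightest over all arrays stands for it. Every hepatocyte marker listed was detected on every array, and Cyp2b10, the standard CAR target, rose in PB animals of all 3 strains by 6.66 (CD-1), 4.49 (hCAR/hPXR) and 5.74 (C3H). The probe for Nr1i2, the gene of PXR, was detected on 0 of 7 PB and 1 of 7 control arrays of hCAR/hPXR mice and on every CD-1 and C3H array. The probe for Nr1i3, the gene of CAR, was detected on every array of the 3 strains, with mean levels of -2.01 in PB animals and -1.02 in controls of hCAR/hPXR mice. The CD-1 arrays were dimmer (99th percentile of the signal 4019 to 6490, against 30159 to 48010 in hCAR/hPXR and 22576 to 31394 in C3H mice) and the replicate spots of their PB arrays more variable (median CV 21.1% to 25.3%, against 13.2% to 14.3% on CD-1 control arrays). By the numbers in the file headers, all CD-1 PB arrays were on 1 slide and all CD-1 controls on another, so PB and slide cannot be told apart there. PB animal 1 of the hCAR/hPXR mice shared a slide with the 7 controls and PB animals 2 to 7 were on a second slide, while the C3H arrays shared 1 slide. A fit with the slide as a block therefore takes each hCAR/hPXR difference from PB animal 1 against the 7 controls. Calls can be lost in it through lower power alone.

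**Figure D1:**
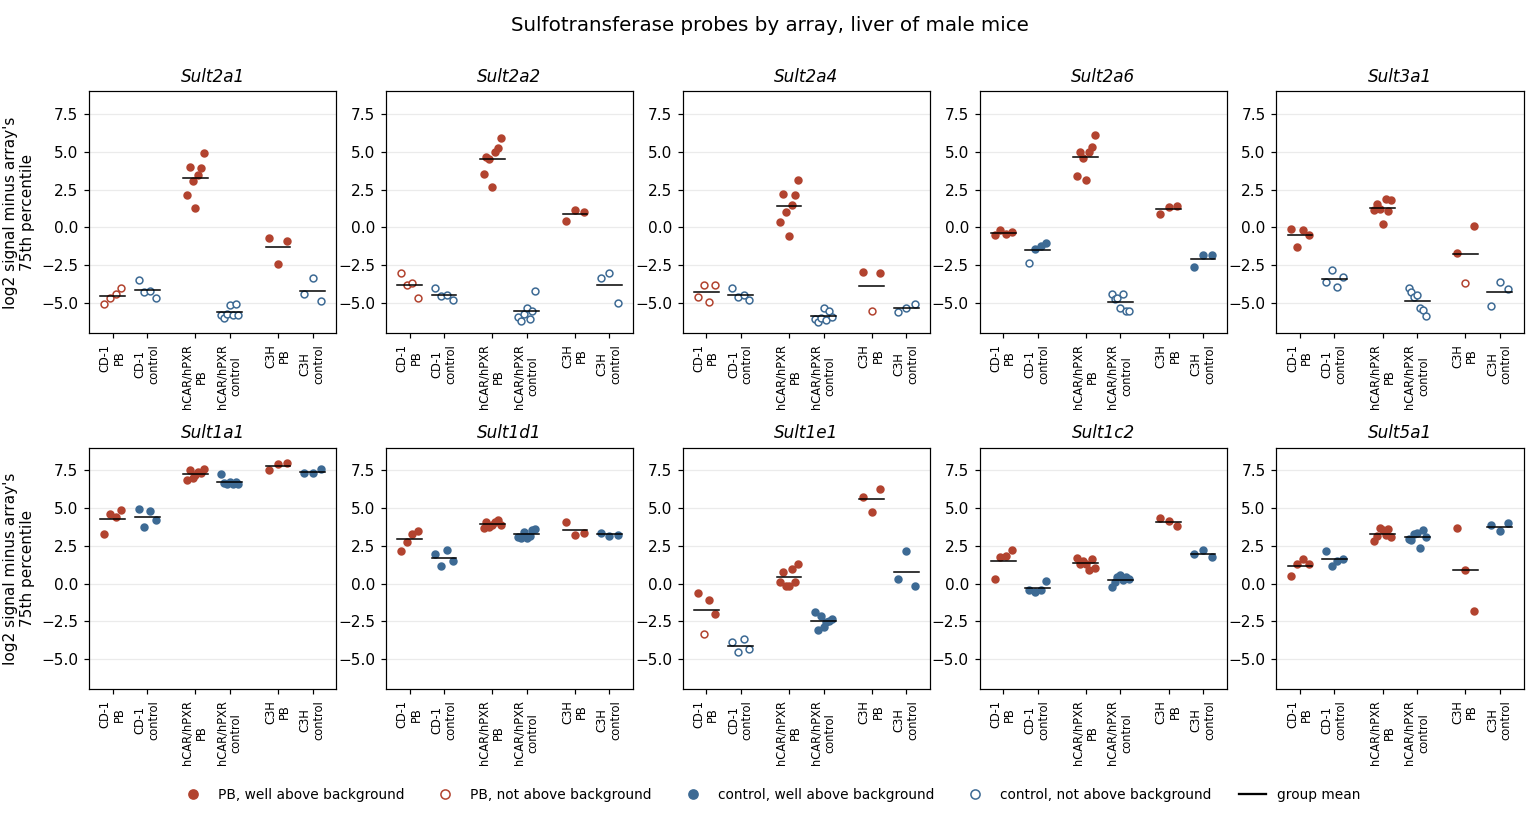
Log2 signal of the brightest probe of each gene on every array, with PB (red) left of control (blue) within each strain; filled points were well above background, open points were not, and black lines are group means. The 4 Sult2a genes and Sult3a1 are at background in all 7 hCAR/hPXR controls and detected in all 7 PB animals, while Sult1a1 is bright in every group. Levels of different panels come from different probes and are not comparable.

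Seen over the 3 strains, the listed sulfotransferases were called higher with PB or were not called on their brightest probes. In hCAR/hPXR mice 9 of 10 tested members rose, where 58.1% of all tested genes were called, 35% higher and 23.2% lower. In the fit with the slide as a block, 7 of 10 were called, all higher, where 2.19% of all genes were called and 1.26% were called higher. The sizes in that fit rest on PB animal 1 alone against the controls, so fewer calls can also come from lower power. In C3H mice 5 of 8 tested members rose, where 14.7% of all tested genes were called, 7.38% higher and 7.3% lower. In CD-1 mice 4 of 6 tested members rose, where 7.97% were called, 1.85% higher and 6.13% lower. Members not tested had neither group detected on every array, and the count of tested members includes those that passed through the PB arrays alone. In hCAR/hPXR mice these were Sult2a1, Sult2a2, Sult2a4, Sult2a6 and Sult3a1, in C3H mice Sult2a1 and Sult2a2, and in CD-1 mice Sult2a6 and Sult3a1. Each of them was among the called members of its strain. Groups did not overlap for 8 of the 10 members tested in hCAR/hPXR mice, where 20.5% of all tested genes did not overlap, for 5 of 8 in C3H mice, against 41.6%, and for 3 of 6 in CD-1 mice, against 18.6%.

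**Figure D2:**
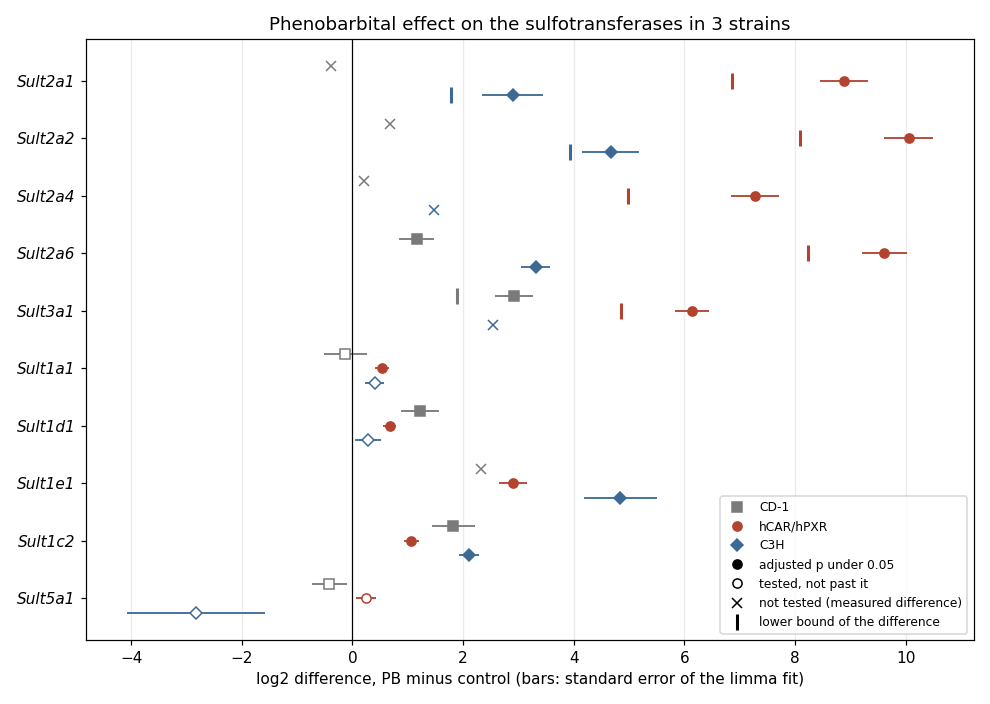
Log2 difference, PB minus control, of each member in the 3 strains, with the standard error of the limma fit as bars; filled symbols had an adjusted p under 0.05, open ones did not, and crosses are measured differences of genes that were not tested. Short vertical marks give an approximate lower bound for tested genes where no control array was well above background. The Sult2a genes and Sult3a1 lie farthest to the right in hCAR/hPXR mice, and no filled symbol lies left of 0.

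The 4 hydroxysteroid sulfotransferases of the Sult2a cluster rose in hCAR/hPXR mice, where they were detected in every PB animal and in no control. Sult2a1, which sulfonates dehydroepiandrosterone and bile acids, had a lowest, median and highest level of 1.29, 3.49 and 4.95 in the 7 PB animals, against -5.98, -5.76 and -5.07 in the 7 controls. All PB arrays and no control array detected it, and the groups did not overlap. Its rise was at least 116-fold (measured means 3.28 and -5.60, limma adjusted p = 6.33e-09). A gene that was not detected on every control array of a strain, as in this case, entered its test through the PB arrays alone. Its adjusted p, also for such genes below, sets a group that had to be detected against one that did not. Here and below, a fold written with "at least" sets the measured PB mean against controls that were all below background, each raised to the lowest signal that counted as well above background on its array. That lowest signal is taken over all probes, and a single probe can lie above it and still not be detected. These folds are therefore approximate bounds.

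Sult2a2, the neighbour of Sult2a1 in the cluster and also a hydroxysteroid sulfotransferase, had 2.65, 4.65 and 5.90 as lowest, median and highest level in PB animals, against -6.20, -5.74 and -4.18 in hCAR/hPXR controls. This is a rise of at least 271-fold (measured means 4.5 and -5.55, limma adjusted p = 1.82e-09). Sult2a4, placed in this family by sequence, had -0.54, 1.48 and 3.12 in PB animals, against -6.23, -5.98 and -5.34 in controls, a rise of at least 31.5-fold (means 1.40 and -5.87, limma adjusted p = 5.53e-08). Both genes were detected on 7 of 7 PB arrays and 0 of 7 control arrays.

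Sult2a6, another member of the hydroxysteroid family, had 3.13, 5.01 and 6.11 as lowest, median and highest level in PB animals, against -5.56, -4.75 and -4.41 in hCAR/hPXR controls, and rose at least 303-fold (measured means 4.66 and -4.95, limma adjusted p = 1.40e-09). The 4 genes kept their calls with the slide as a block, where the difference of Sult2a1 was 7.79, of Sult2a2 9.09, of Sult2a4 6.23 and of Sult2a6 8.36 (limma adjusted p between 5.87e-05 and 0.00162). In that fit PB animal 1, the animal that shared the controls' slide, is the only PB animal on the first slide. Each of these differences is therefore that of PB animal 1 from the controls. This animal stood at 2.18 for Sult2a1, 3.54 for Sult2a2, 0.35 for Sult2a4 and 3.41 for Sult2a6, above all controls in each case.

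Not all Sult2a6 probes followed this. A second probe (A_55_P2107223) gave a difference of 7.65 ± 0.85 in hCAR/hPXR mice (limma adjusted p over probes = 1.28e-05), although control animal 3 stood at 0.23 while the other controls were between -6.08 and -4.40. Under the slide block it gave 6.63 (adjusted p = 0.0733). Another probe (A_55_P2107225) was not well above background on any hCAR/hPXR or C3H array. In CD-1 mice that probe was detected on 4 of 4 PB and 3 of 4 control arrays and gave 0.53 ± 0.34 (limma adjusted p = 0.324).

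The 4 Sult2a genes varied more among PB-fed hCAR/hPXR animals than Cyp2b10 did. Their range over the 7 PB animals was 3.66 for Sult2a1, 3.25 for Sult2a2, 3.66 for Sult2a4 and 2.98 for Sult2a6, and 0.45 for Cyp2b10. Of 18665 genes detected on all 7 arrays, 0.905% had a range as wide as that of Sult2a6 or wider, 0.627% as that of Sult2a2, 0.375% as that of Sult2a1 and 0.364% as that of Sult2a4. PB animal 4 was lowest and PB animal 7 highest for each of the 4 genes. Their probes may share transcripts, so the 4 orders are not independent of each other.

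**Figure D3:**
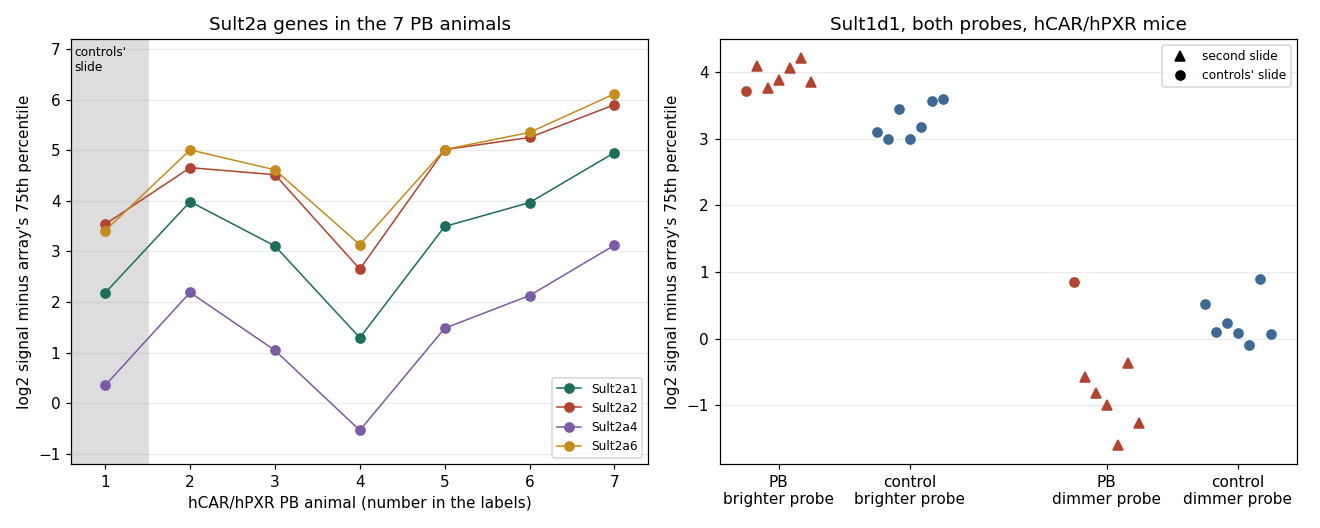
Left, log2 signal of the 4 Sult2a genes in the 7 hCAR/hPXR PB animals, where lines only join the points of a gene and the shaded animal shared the slide of the controls; animal 4 is lowest and animal 7 highest for all 4. Right, both probes of Sult1d1 in hCAR/hPXR mice with PB left of control, where circles are arrays on the controls' slide and triangles arrays on the second slide; on the dimmer probe the 1 PB animal on the controls' slide (0.84) lies above the other 6 (-1.59 to -0.37). Levels of different probes are not comparable.

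In C3H mice the same cluster rose less. Sult2a1 had levels of -0.67, -2.39 and -0.89 in PB animals, against -4.40, -3.36 and -4.87 in controls, and rose at least 3.43-fold (measured means -1.32 and -4.21, limma adjusted p = 0.0244). Sult2a2 had 0.45, 1.14 and 1.02, against -3.33, -3.04 and -5.02, and rose at least 15.4-fold (means 0.87 and -3.80, adjusted p = 0.00522). The groups did not overlap for either gene, and no C3H control array detected them. The call of Sult2a1 was lost without PB animal 3 (limma adjusted p = 0.0726), control 1 (0.0875) or control 3 (0.0906), and with no filter on dim probes (0.0725).

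Sult2a6 was detected on all 6 C3H arrays, with 0.88, 1.35 and 1.40 in PB animals, against -2.64, -1.83 and -1.84 in controls. This is a 9.92-fold rise (3.31 ± 0.27, limma adjusted p = 0.00187), and its second probe rose at least 4.86-fold. Sult2a4 was detected on 2 of 3 PB and 0 of 3 control arrays, so it was not tested; its levels were -2.95, -5.55 and -3.02 in PB animals, against -5.58, -5.31 and -5.06 in controls. PB animal 2, the lowest of the 3 for Sult2a4 and Sult2a1, lay within the control range for Sult2a4.

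CD-1 mice differed in that 3 of the 4 genes were not detected on any of their 8 arrays. Sult2a1 levels were -5.04 to -4.02 in PB animals and -4.70 to -3.49 in controls, Sult2a2 levels -4.65 to -3.0 in PB animals and -4.83 to -3.99 in controls, and Sult2a4 levels -4.90 to -3.77 in PB animals and -4.80 to -4.0 in controls. The lowest signal that counted as well above background was between -3.11 and -2.60 on the CD-1 PB arrays and between -2.79 and -1.99 on the control arrays, so levels under these limits could not be seen. Single probes could also go undetected above them, as Sult2a6 probe A_55_P2107225 did at -1.80 in CD-1 control 1. Sult2a6 was detected on 4 of 4 PB and 3 of 4 control arrays, with -0.50, -0.17, -0.41 and -0.27 in PB animals, against -2.37, -1.39, -1.23 and -0.99 in controls. Its groups did not overlap, and it rose 2.24-fold (1.16 ± 0.32, limma adjusted p = 0.0415). That call was lost without any 1 of 7 of the 8 animals (adjusted p 0.0561 to 0.118).

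The difference between the strains was tested as well. The PB effect on each of the 4 genes was larger in hCAR/hPXR than in CD-1 mice, by 9.27 ± 0.66 for Sult2a1, 9.38 ± 0.67 for Sult2a2, 7.07 ± 0.70 for Sult2a4 and 8.45 ± 0.57 for Sult2a6 (limma interaction, adjusted p between 2.39e-10 and 3.09e-07). It was also larger in hCAR/hPXR than in C3H mice, by 5.99 ± 0.72, 5.39 ± 0.73, 5.8 ± 0.76 and 6.31 ± 0.62 in the same order of genes (adjusted p between 7.32e-08 and 1.55e-05). C3H exceeded CD-1 mice by 3.27 ± 0.81 for Sult2a1, 3.99 ± 0.82 for Sult2a2 and 2.15 ± 0.69 for Sult2a6 (adjusted p = 0.00797, 0.00182 and 0.0368). This last call was lost without any 1 of 6 animals (adjusted p 0.0587 to 0.0911) with the replicate block (adjusted p = 0.0621) and after quantile normalization (0.50, adjusted p = 0.635), and that of Sult2a1 with normexp (0.75, adjusted p = 0.315). Over all 10 members, 5 differences were called between hCAR/hPXR and CD-1 mice, where 28.6% of all genes were called, 6 between hCAR/hPXR and C3H mice, where 9.57% were called, and 4 between C3H and CD-1 mice, where 15% were called. Sizes that involve an undetected group are differences of measured signals at background, not bounds. In hCAR/hPXR minus CD-1, Sult2a1, Sult2a2 and Sult2a4 passed the filter through the hCAR/hPXR PB arrays alone. In C3H minus CD-1, Sult2a1 and Sult2a2 passed through the C3H PB arrays alone. In hCAR/hPXR minus C3H, Sult2a4 passed through the hCAR/hPXR PB arrays alone, and Sult2a1 and Sult2a2 through PB arrays of both strains and no controls. The adjusted p values of these genes thus set groups that had to be detected against signal at background. With detection required in every group, 0 differences were called in either contrast with CD-1 mice and 1 in hCAR/hPXR minus C3H.

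The neighbours of these genes in the cluster did not all move with them. Sult2a7, on the far side of Sult2a6, rose by 3.02 ± 0.45 in CD-1 (limma adjusted p = 0.00148) and 3.85 ± 0.34 in hCAR/hPXR mice (adjusted p = 2.47e-06) and by 3.19 with the slide as a block, and gave 0.53 ± 0.20 in C3H mice (adjusted p = 0.117). Sult2a8, a bile acid sulfotransferase of male mouse liver that lies between Sult2a6 and Sult2a7, fell by 1.28 on the log2 scale in C3H mice (± 0.31, adjusted p = 0.0421) and gave -0.52 ± 0.24 in hCAR/hPXR (adjusted p = 0.0731) and -1.52 ± 0.45 in CD-1 mice (adjusted p = 0.0564). Sult2a3, whose window above lacks TCATGAACT, was detected on 6 of 7 PB and 0 of 7 control arrays of hCAR/hPXR mice, where its measured means differed at least 3.42-fold without a test, and on no C3H array. It gave 0.06 ± 0.29 in CD-1 mice (adjusted p = 0.906).

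**Figure D4:**
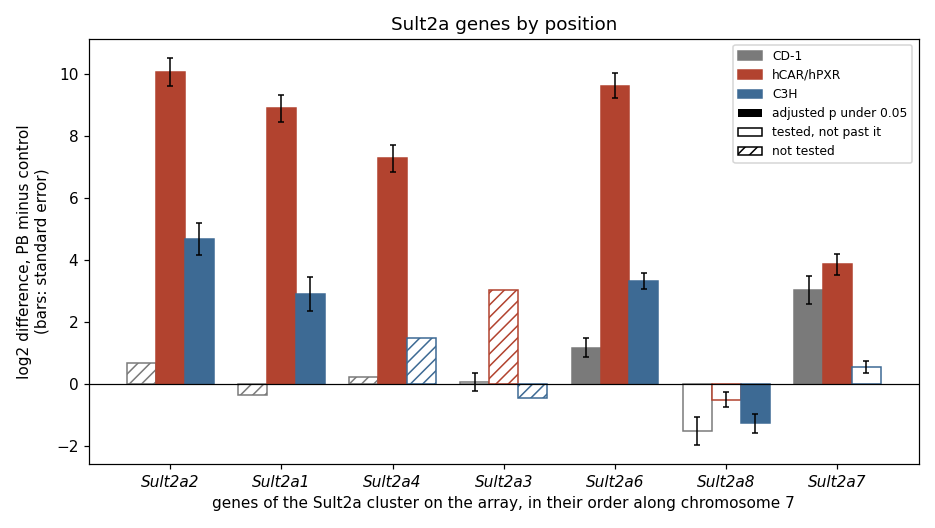
Log2 difference, PB minus control, of the 7 Sult2a genes on the array in their order along chromosome 7, for CD-1 (grey), hCAR/hPXR (red) and C3H (blue) mice, with standard errors; filled bars had an adjusted p under 0.05, open bars did not, and hatched bars were not tested. Bars are measured differences, so those with undetected controls depend on signal at background. Sult2a2, Sult2a1, Sult2a4 and Sult2a6 are highest in hCAR/hPXR mice, and Sult2a8 lies below 0 in all 3 strains.

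Sult3a1, the amine sulfotransferase, was undetected in all controls of the 3 strains. In hCAR/hPXR mice its lowest, median and highest level was 0.20, 1.23 and 1.90 in PB animals, against -5.88, -4.61 and -4.01 in controls, a rise of at least 28.9-fold (measured means 1.28 and -4.86, limma adjusted p = 8.64e-09). In CD-1 mice it had -0.09, -1.31, -0.17 and -0.48 in PB animals, against -3.64, -2.82, -3.94 and -3.31 in controls, a rise of at least 3.69-fold (means -0.51 and -3.43, adjusted p = 0.000309). The groups did not overlap in either strain. In C3H mice 2 of 3 PB arrays detected it (levels -1.67, -3.65 and 0.08 in PB animals, against -5.20, -3.58 and -4.10 in controls), so it was not tested.

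Sult3a1 was called in all 18 alternative fits that gave it a value in CD-1 mice (limma adjusted p 0.000336 to 0.0418). The fit that required detection on every array of both groups left it out. None of the fits could tell PB and slide apart in CD-1 mice. The PB effect on Sult3a1 was larger in hCAR/hPXR than in CD-1 mice by 3.22 ± 0.68 (limma adjusted p = 0.00141) and larger than in C3H mice by 3.59 ± 0.74 (adjusted p = 0.00264). In both comparisons the gene passed the filter through PB arrays alone. The second of these was not called with the slide as a block (3.48, adjusted p = 0.129). Its paralog Sult3a2 gave 0.89 ± 0.30 in CD-1 mice (adjusted p = 0.0827) and was not tested in the other strains.

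Sult1e1, the estrogen sulfotransferase, rose in C3H and in hCAR/hPXR mice. Its levels in C3H mice were 5.73, 4.76 and 6.27 in PB animals, against 0.28, 2.14 and -0.17 in controls, and the groups did not overlap. This is a 28.7-fold rise (4.84 ± 0.66, limma adjusted p = 0.00935). In hCAR/hPXR mice the lowest, median and highest level was -0.17, 0.14 and 1.33 in PB animals, against -3.09, -2.45 and -1.85 in controls, a 7.44-fold rise (2.90 ± 0.25, adjusted p = 1.87e-06) that kept its call with the slide as a block (2.61 ± 0.51, adjusted p = 0.0177).

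In CD-1 mice 3 of 4 PB arrays and no control array detected Sult1e1, which therefore was not tested. Its levels there were -0.64, -3.31, -1.11 and -2.02 in PB animals, against -3.88, -4.54, -3.65 and -4.33 in controls, so that all PB animals lay above all controls and the means differed at least 1.54-fold. The effect in C3H mice exceeded that in CD-1 mice by 2.51 ± 0.75 (limma adjusted p = 0.0251), a call that was lost without CD-1 PB animal 2 (0.0529), C3H control 1 (0.0623), C3H control 3 (0.0870) or C3H PB animal 3 (0.0834), and after quantile normalization (0.0578). The difference between hCAR/hPXR and C3H mice was -1.95 ± 0.67 (adjusted p = 0.0650). Sult1b1 and Sult1d1 lie beside Sult1e1, and Sult1b1 was not called in any strain.

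Sult1c2, a SULT1 enzyme that acts on phenolic compounds, was called in all 3 strains, as Sult2a6 was. It had 0.31, 1.78, 1.81 and 2.21 in CD-1 PB animals, against -0.41, -0.53, -0.43 and 0.19 in CD-1 controls (3.54-fold, 1.83 ± 0.39, limma adjusted p = 0.0124). The hCAR/hPXR mice had 0.91, 1.33 and 1.70 as lowest, median and highest level in PB animals, against -0.21, 0.31 and 0.56 in controls (2.09-fold, 1.07 ± 0.14, adjusted p = 4.14e-05). In C3H mice it had 4.33, 4.15 and 3.80 in PB animals, against 1.94, 2.21 and 1.79 in controls (4.31-fold, 2.11 ± 0.19, adjusted p = 0.00256).

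The groups of Sult1c2 did not overlap in any strain, and the call held in every alternative fit run within a strain, including the slide as a block in hCAR/hPXR mice (1.43 ± 0.27, limma adjusted p = 0.0140). No difference of its effect between strains was called (hCAR/hPXR minus CD-1 -0.76 ± 0.35, adjusted p = 0.105; hCAR/hPXR minus C3H -1.04 ± 0.38, adjusted p = 0.0834).

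Sult1d1, which sulfonates catechols such as dopamine, gave small differences. On its brighter probe it had 2.19, 2.79, 3.29 and 3.46 in CD-1 PB animals, against 1.99, 1.17, 2.21 and 1.5 in CD-1 controls. The groups overlapped, and the 2.32-fold rise (1.22 ± 0.34, limma adjusted p = 0.0484) was lost without any 1 of 6 of the 8 animals (0.0645 to 0.138) and in the deposited value table (0.0508). The hCAR/hPXR mice had 3.71, 3.88 and 4.21 as lowest, median and highest level in PB animals, against 2.99, 3.18 and 3.60 in controls, a 1.59-fold rise (0.67 ± 0.12, adjusted p = 0.000322) that was not called with the slide as a block (0.44 ± 0.23, adjusted p = 0.398).

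The 2 Sult1d1 probes disagreed in hCAR/hPXR mice. The dimmer probe (A_55_P2181538) gave -0.94 ± 0.30 (limma adjusted p over probes = 0.0142), with levels of -1.59, -0.82 and 0.84 in PB animals, against -0.09, 0.09 and 0.90 in controls. The highest PB level, 0.84, was that of PB animal 1 on the controls' slide, and the other 6 lay between -1.59 and -0.37, all below the controls. With the slide as a block this probe gave 0.59 ± 0.39 (adjusted p = 0.530). In CD-1 mice the dimmer probe rose at least 2.37-fold. In C3H mice neither probe was called, and the brighter one had 4.05, 3.22 and 3.34 in PB animals, against 3.37, 3.18 and 3.23 in controls (0.28 ± 0.23, adjusted p = 0.435).

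Sult1a1, the main phenol sulfotransferase of liver, was detected on every array, and its 2 probes led to the same calls in each strain. The hCAR/hPXR mice had 6.88, 7.33 and 7.58 as lowest, median and highest level in PB animals, against 6.58, 6.66 and 7.28 in controls. The groups overlapped because control animal 1, at 7.28, stood apart from the other 6 controls, which lay between 6.58 and 6.74. The 1.45-fold rise (0.53 ± 0.13, limma adjusted p = 0.00330) was not called with the slide as a block (0.14 ± 0.24, adjusted p = 0.826) or after quantile normalization (0.30, adjusted p = 0.0621).

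In C3H mice Sult1a1 had 7.53, 7.94 and 7.95 in PB animals, against 7.32, 7.29 and 7.61 in controls (0.40 ± 0.17, limma adjusted p = 0.145), and without PB animal 1 it was called (0.54, adjusted p = 0.0448), as it was with normexp (0.51, adjusted p = 0.0431). In CD-1 mice it had 3.29, 4.62, 4.41 and 4.90 in PB animals, against 4.96, 3.78, 4.79 and 4.21 in controls (-0.13 ± 0.38, adjusted p = 0.849). No difference of its effect between strains was called.

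Sult5a1 was the one member with a negative difference of more than 1 log2 unit, and it came from 2 of 3 animals. Its levels in C3H mice were 3.68, 0.93 and -1.81 in PB animals, against 3.87, 3.46 and 3.98 in controls. PB animal 1 lay within the control range, PB animals 2 and 3 lay below it, and all 6 arrays detected the gene. The difference of -2.84 ± 1.25 was not called (limma adjusted p = 0.158), and it was called without PB animal 1 (-4.21, adjusted p = 0.0131) and in 1 fit of all 28 arrays (-2.84, adjusted p = 0.00391).

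In hCAR/hPXR mice Sult5a1 had 2.83, 3.25 and 3.69 as lowest, median and highest level in PB animals, against 2.38, 3.06 and 3.54 in controls (0.25 ± 0.18, limma adjusted p = 0.240), and in CD-1 mice 0.52, 1.32, 1.62 and 1.32, against 2.16, 1.18, 1.47 and 1.66 (-0.42 ± 0.32, adjusted p = 0.401). Its effect in hCAR/hPXR exceeded that in C3H mice by 3.08 ± 0.81 (adjusted p = 0.0162), which was not called with the slide as a block (2.61, adjusted p = 0.347) or without C3H PB animal 3 (1.71, adjusted p = 0.0707) or C3H control 3 (2.98, adjusted p = 0.0511).

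Control levels were compared between strains probe by probe as a description, since strain and experiment cannot be told apart. Sult1e1 was highest in C3H controls, lower in hCAR/hPXR controls and undetected in CD-1 controls, and neither pair of neighbours in that order overlapped. Sult1c2 in C3H controls lay above all hCAR/hPXR controls, which overlapped the CD-1 controls. These orders were the same after quantile normalization. Sult1a1 and Sult5a1 had the order C3H, hCAR/hPXR, CD-1 under both scalings; Sult5a1 overlapped between C3H and hCAR/hPXR controls, and its separation from CD-1 controls was absent after quantile normalization. For Sult1d1 the order of C3H and CD-1 controls turned with the scaling.

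Among 12 other sulfotransferases on the array, Sult2a7 was the one called higher in any strain. Of 9 tested in CD-1 mice 1 was called higher (Sult2a7) and none lower, of 6 in hCAR/hPXR mice 1 was higher (Sult2a7) and 2 lower, and of 6 in C3H mice none was higher and 4 lower. The shares over all tested genes were 1.85% higher and 6.13% lower in CD-1, 35% and 23.2% in hCAR/hPXR, and 7.38% and 7.3% in C3H mice. The median of this list was 0.06 for CD-1, -0.44 for hCAR/hPXR and -0.90 for C3H mice. Tpst1, a tyrosylprotein sulfotransferase of the Golgi, fell by 1.71 on the log2 scale in hCAR/hPXR mice (± 0.27, limma adjusted p = 0.000128), and in C3H mice it was detected on 0 of 3 PB and 3 of 3 control arrays (at least 1.95-fold lower, adjusted p = 0.0411). Sult4a1, a family member known mainly from brain, fell by 0.96 in hCAR/hPXR (adjusted p = 0.000292) and by 1.66 in C3H mice (adjusted p = 0.00932). With the slide as a block in hCAR/hPXR mice, Tpst1 gave -0.13 (adjusted p = 0.848) and Sult4a1 -0.62 (adjusted p = 0.401), and Sult2a7 was the one gene of this list still called.

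Of 18 tested genes that supply or turn over sulfate and PAPS, 9 were called higher in hCAR/hPXR mice and none lower, among them Papss2, one of the PAPS synthase genes (1.0 ± 0.13, limma adjusted p = 2.94e-05), and Sumf2, a sulfatase-modifying factor gene (0.74 ± 0.09, adjusted p = 2.12e-05). Of all tested genes 35% were called higher there and 23.2% lower. Under the slide block 0 of 18 were called, and Papss2 gave 0.70 (adjusted p = 0.174). In CD-1 mice 3 of 18 were lower and none higher: Csad of taurine synthesis (-1.65), Arsa, a sulfatase (-1.12), and Suox, sulfite oxidase (-1.15). The shares over all tested CD-1 genes were 6.13% lower and 1.85% higher. In C3H mice 3 of 18 were lower and none higher: Mpst (-0.62), Ethe1 (-1.11) and Sqor (-0.98), all of mitochondrial or cytosolic sulfide handling. The shares over all tested C3H genes were 7.3% lower and 7.38% higher. Papss1 was not called in any strain.

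Levels of hepatocyte markers moved with PB in 2 of the strains. Their mean level per array was 7.2 to 8.16 in CD-1 PB animals, against 8.34 to 8.99 in CD-1 controls, with 3 of 8 called lower, and 9.18 to 9.55 in C3H PB animals, against 9.96 to 10.1 in C3H controls, with 6 of 8 called lower. Among hCAR/hPXR mice it was 8.66 to 9.16 in PB animals, against 8.90 to 9.11 in controls, with 1 of 8 called higher and none lower. Of all tested genes, 6.13% were called lower in CD-1, 7.3% in C3H and 23.2% in hCAR/hPXR mice. In bulk liver RNA, fewer cells of a type and less RNA per cell cannot be told apart, and the part of this shift in the Sult values was not tested.

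For each member the 3 named genes most like it are those with the smallest root mean square difference over the 28 arrays, after each strain's control mean was subtracted. Sult2a1 had Ackr3 nearest (2.08), Sult2a2 Prom1 (2.42), Sult2a4 Tafa2 (1.59), Sult2a6 Prom1 (2.18) and Sult3a1 Prom1 (1.28), so no gene came closer than 1 log2 unit to these 5. Nearer matches were found for Sult1a1 (Timm10b, 0.14), Sult1d1 (Cyp3a41b, 0.27), Sult5a1 (Sfxn1, 0.30), Sult1c2 (Por, 0.37) and Sult1e1 (Cdc20, 0.86, followed by Ccnb1, 0.87, and Aspm, 0.88). For Sult1c2 the next were Gstm1 (0.42) and Ces2b (0.46).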

How the data were processed

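The intensity of each spot, background-subtracted within its array, came from Agilent Feature Extraction 10.7.3.1, per the file headers. The deposited value table holds log2 values, which differed from the log2 processed signal by 1 constant per array, and it served as an alternative. Spots with outlier marks were left out, replicate spots averaged, and each array's 75th percentile over non-control probes subtracted from log2 signals. Probes were named through RefSeq accessions on GRCm38.p6. Of 37208 genes and transcripts, those well above background on every array of either group were tested within a strain by limma 3.58.1 (R 4.3.3; residual degrees of freedom 6 for CD-1, 12 for hCAR/hPXR and 4 for C3H) with Benjamini-Hochberg adjustment over all tested genes. Differences between strains were interactions in 1 fit of all 28 arrays. The fits were run on simulated data drawn without a slide effect, so that check does not bear on differences between slides.

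The members, the gene lists and the alternatives were chosen with earlier results of these data known. The rule for named genes took all 10 members with every probe, Cyp2b10, Nr1i3 and Nr1i2 as checks, and up to 4 called genes per list with the smallest adjusted p; other genes named were chosen after their values were seen. The number of arrays limits the precision. Titles call the animals biological replicates. Replicate numbers were not taken as pairs in the main fits (correlation of same-numbered deviations -0.45 to 0.06 in CD-1, -0.13 to 0.27 in hCAR/hPXR and 0.04 to 0.18 in C3H mice). In C3H mice 2 of 3 same-numbered pairs correlated best with each other, so pairing is not settled there. The normexp alternative used median signals, since mean signals were not used here. RefSeq promoter windows were matched by symbol for 8 of 10 members, all but Sult2a1 and Sult2a2.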

Additional observations from a re-analysis of the deposited data

Results flagged for a closer look

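One array stood apart within its group. Sult1a1 was 7.28 in hCAR/hPXR control animal 1, with the nearest of the other 6 controls at 6.74, a gap of 0.770 of the whole range. The 40 groups of 4 or 7 arrays were looked at with a threshold that chance passes in about 1 of 20 groups.

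The PB effect differed between strains, by the interaction in limma, in 15 cases. Against CD-1 mice, the effect in hCAR/hPXR mice was larger by 9.27 for Sult2a1, 9.38 for Sult2a2, 7.07 for Sult2a4, 8.45 for Sult2a6 and 3.22 for Sult3a1. Against C3H mice, it was larger by 5.99 for Sult2a1, 5.39 for Sult2a2, 5.8 for Sult2a4, 6.31 for Sult2a6, 3.59 for Sult3a1 and 3.08 for Sult5a1. The effect in C3H mice exceeded that in CD-1 mice by 3.27 for Sult2a1, 3.99 for Sult2a2, 2.15 for Sult2a6 and 2.51 for Sult1e1. Sult2a1, Sult2a2 and Sult2a4 were detected on no CD-1 array, so their differences from CD-1 mice rest on signal at background. In hCAR/hPXR minus C3H, these genes and Sult3a1 passed the filter through PB arrays alone. Dose and slide go with strain in all of these comparisons, and duration and the carcinogen as well in those with C3H mice, and they cannot be told apart from it.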

How the results depend on the processing

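A stricter filter for dim probes lowered the number of members called, since most Sult2a and Sult3a1 controls were undetected. Here every array of both groups had to be well above background. Under it 2 members were called in CD-1, 4 in hCAR/hPXR and 3 in C3H mice, against 4, 9 and 5. The members still tested were Sult1a1, Sult1d1, Sult1c2 and Sult5a1 in each strain, with Sult1e1 in hCAR/hPXR and C3H mice and Sult2a6 in C3H mice. Over all genes, the filter left 17093 tested and 1679 called in CD-1 mice. For hCAR/hPXR mice these numbers were 17693 and 10392, for C3H mice 16526 and 2372. Called differences numbered 0 for hCAR/hPXR minus CD-1, 1 for hCAR/hPXR minus C3H and 0 for C3H minus CD-1 mice, against 5, 6 and 4, with fewer members tested. Shares over all genes are not given for the differences under the alternatives here and below. With normexp on median signals and quantile normalization (chosen after seeing which columns the files hold), 8 members differed between hCAR/hPXR and CD-1 mice, 6 higher and 2 lower. Leaving out 1 animal gave 2 to 3 members in CD-1 (2 without PB 3, PB 4, control 2 or control 3), 9 to 9 in hCAR/hPXR and 4 to 7 in C3H mice, and 5 to 7, 5 to 7 and 2 to 6 called differences for hCAR/hPXR minus CD-1, hCAR/hPXR minus C3H and C3H minus CD-1 (2 without C3H control 1 or PB 3). With the replicate block, 2 members were called in CD-1, 9 in hCAR/hPXR and 4 in C3H mice; Sult2a6 (adjusted p = 0.0767) and Sult1d1 (0.0814) in CD-1 and Sult2a1 in C3H mice (0.0696) were not called. Same-numbered animals correlated best with each other in 0 of 4, 2 of 7 and 2 of 3 pairs. Uncalled values changed sign as follows: Sult1a1 in CD-1 mice gave 0.0757 after quantile normalization, 0.0479 with normexp, 0.127 with the 75th percentile over probes detected on all arrays, 0.209 without PB animal 1 and 0.0444 without control 1 (-0.349 to 0.209 when 1 animal was left out), Sult5a1 in CD-1 mice gave 0.339 with normexp, and Sult5a1 in hCAR/hPXR mice gave -0.229 with the slide as a block and -0.229 on the first slide alone (added after seeing the data). No slide term could be fitted in CD-1 mice, and the C3H arrays share 1 slide.

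Over all genes, calls in CD-1 mice numbered 1900, and 3802 with normexp, 6186 in 1 fit of all arrays, 1159 with the replicate block and 928 to 2128 when 1 animal was left out; in hCAR/hPXR mice 11644, and 439 with the slide as a block and 228 on the first slide alone; in C3H mice 2683, and 612 without a filter, 1543 with the replicate block and 575 to 5385 when 1 animal was left out (5385 without PB animal 1). The share of calls that were higher was 23.2% in CD-1 mice, and 33.7% with quantile normalization and 39.5% with normexp, and 60.2% in hCAR/hPXR mice, and 36.6% with the 75th percentile over detected probes. That percentile moved the median of all genes to 0.22 in CD-1 mice, against -0.04, and to -0.06 in hCAR/hPXR mice, against 0.13. Relative to the 0.13, Sult1a1 in hCAR/hPXR mice had 0.40 in place of 0.53. In CD-1 mice dim arrays limit what can be seen of Sult2a1, Sult2a2, Sult2a4 and Sult1e1.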

Other observations

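Genes known as sex-biased in mouse liver were listed apart from the Sults. Of all tested genes, 1.85% were called higher and 6.13% lower in CD-1, 35% and 23.2% in hCAR/hPXR, and 7.38% and 7.3% in C3H mice. Among the female-biased genes, 5 of 9 tested were called higher in CD-1 mice (list median 1.06). The hCAR/hPXR mice had 8 of 11 called higher (median 1.69), and the C3H mice 6 of 11 (median 1.98). Cyp2b9, a P450 gene, was called in all 3 strains (4.29 in CD-1, 4.90 in hCAR/hPXR and 5.95 in C3H mice, limma adjusted p = 6.75e-05, 1.40e-09 and 0.00134), and Cyp2a4, a testosterone hydroxylase gene, as well (2.60, 1.69 and 1.98). Under the slide block 4 of 11 were called in hCAR/hPXR mice, where Cyp2b9 gave 4.73, Slc22a27 3.26, Cyp3a44 2.46 and Cyp2a4 1.41. Among listed male-biased genes, 3 of 15 fell and 1 rose in CD-1, 7 of 16 fell and 2 rose in hCAR/hPXR, and 3 of 16 fell and 1 rose in C3H mice. Cyp7b1, an oxysterol hydroxylase gene, fell in all 3 (by 1.46, 0.95 and 2.14 on the log2 scale). Under the slide block 0 of 16 were called in hCAR/hPXR mice. Cyp2b9 is itself known to respond to CAR.

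PB animal 4 of the hCAR/hPXR mice, the lowest for all 4 Sult2a genes, was the highest of the 7 PB animals for 11 of 16 listed male-biased genes and the lowest for none. Slco1a1, an organic anion uptake gene, stood at 2.26 in that animal, at -1.83 in PB animal 7 and at -1.97 in the lowest animal. Hsd3b5, a steroid dehydrogenase gene, stood at 4.73, 0.20 and -1.07 in the same 3. Among 15 listed female-biased genes animal 4 was highest for 0 and lowest for 4, and animal 7 was highest for 5 and lowest for 2. Animal 7 was the lowest for 1 of the 16 male-biased genes, and the lowest animal for Slco1a1 and Hsd3b5 was PB animal 2. How often animal 4 was highest or lowest among all genes was not counted. A shift of its whole array was therefore not set apart from a pattern of these lists. Its array had the lowest percentage well above background of the 7 PB arrays (47.9%, with the highest at 53.9%). It also had the most probes dropped for outlier marks (20). The pattern of animal 4 was noticed after the Sult2a values had been seen, and neither it nor a link to the Sult2a levels was tested.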
